A study of Rattus norvegicus with 18 samples.

Results

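The enzymes that make and break down cyclic nucleotides, and the subunits of kinase A, were followed across 5 regions of the rat heart. The 38 members are the protein-coding entries of the deposited gene table, which holds 32883 genes, whose symbol names a numbered adenylyl cyclase (10 entries), a phosphodiesterase with a family number and a letter (22 entries), or a catalytic (2 entries) or regulatory (4 entries) subunit of kinase A. They were chosen by symbol and not by any measured value, and carry 37 symbols because 2 entries are named Pde4c. RNA of the superior sinoatrial node (sSAN), inferior sinoatrial node (iSAN), left atrium (LA) and right atrium (RA) of 4 healthy male Sprague Dawley rats, untreated and with no altered gene, was sequenced, and left ventricle (LV) RNA of 2 of those rats. The age was 59 days for rats 1 and 2, and 70 days for rats 3 and 4, which gave the LV. The 18 libraries held 17334954 to 24252103 counts. Each library is 1 dissected piece of tissue with all of its cell types, so that fewer cells of a type and less RNA per cell cannot be told apart.

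Adenylyl cyclases form cyclic AMP when G protein-coupled receptors, such as the beta-adrenergic receptors, switch them on through the stimulatory G protein. Cyclic AMP opens the pacemaker channels of nodal cells directly and frees the catalytic subunits of kinase A from their regulatory subunits, after which the kinase phosphorylates calcium channels, the ryanodine receptor and phospholamban. Phosphodiesterases end the signal, and families differ in whether they cleave cyclic AMP, cyclic GMP or both. In the sinus node this pathway sets the rate of beating, and in working muscle the force and speed of contraction.

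The labels were checked against defining genes. The summed level of 7 sinus node markers was 153 to 323 CPM (counts scaled to library size with TMM factors) in the sSAN and 166 to 210.0 CPM in the iSAN, against 62.8 to 79.5 CPM in the LA and 97.0 to 109 CPM in the RA. Not all of these markers were called. In the sSAN 5 of 7 tested were higher than in the RA, where 13.8% of all genes were. In the iSAN 4 of 6 tested were higher, where 10.4% of all genes were, and 0 were lower in either node. Hcn4, the main pacemaker channel, was at 49.5 to 133 CPM in the sSAN and 46.6 to 67.1 CPM in the iSAN, against 17.4 to 21.4 CPM in the RA. The node pieces also held fat. Adipoq, a hormone gene of fat cells, was at 203 to 1015 CPM in the sSAN and 38.4 to 662 CPM in the iSAN, against 0 to 4.02 CPM in the LA and 0 to 0.478 CPM in the RA. They held less of the 4 cardiomyocyte markers (summed level 10180 to 19620 CPM in the sSAN and 16100 to 22510 CPM in the iSAN, against 28560 to 31660 CPM in the RA), more of 5 fibroblast markers (2720 to 3894 CPM in the sSAN and 3654 to 4807 CPM in the iSAN, against 1657 to 1790 CPM in the RA), and more of 6 Schwann cell markers (97.9 to 669 CPM in the sSAN and 81.5 to 556 CPM in the iSAN, against 53.0 to 57.1 CPM in the RA) and of 4 smooth muscle markers (317 to 665 CPM in the sSAN and 328 to 615 CPM in the iSAN, against 55.4 to 115 CPM in the RA). The cardiomyocyte sum was mostly Myh6 (21240 to 23890 CPM in the RA). Of the 4 markers, 3 were called lower than in the RA in the sSAN and 4 in the iSAN. Tnnt2 reached 4032 CPM in the sSAN of rat 3, within its RA range of 3730 to 4516 CPM. Among node pieces Adipoq was lowest in the iSAN of rat 1.

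Of the 38 members, 33 passed the filter on low counts over the 18 libraries. The other 5 were Adcy8, Pde6a, Pde6b, Pde6c and the second Pde4c entry (ENSRNOG00000043249), with at most 9 counts in any library; the Pde6 genes encode the photoreceptor enzyme. In a test for any difference among the 5 regions, 25 of the 33 tested members (75.8%) were called at an edgeR adjusted p under 0.05, where 55.3% of all genes tested were called. The 8 tested members that were not called were Adcy4, Adcy6, Adcy10, Pde4d, Pde6d, Pde8a, Pde10a and Prkacb. By pairs of regions, 9 of 32 tested members exceeded the RA level in sSAN pieces (28.1%, where 13.8% of all genes were) and 5 were lower there (15.6%, where 8.48% were). In the iSAN against the RA, 10 of 33 were higher (30.3%, where 10.4% of all genes were) and 6 lower (18.2%, where 6.16% were). In the LV against the RA, 9 of 32 were higher (28.1%, near the 23.5% of all genes) and 4 were lower (12.5%, where 22.7% of all genes were). In the LA against the RA, 6 of 32 were higher (18.8%, where 4.37% were) and 1 was lower (3.12%, where 4.26% were). Pde1c is in all of these higher counts, Prkar1b in that of the iSAN and Pde8b in that of the LV. Each passed the filter on low counts through the region where it was higher.

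**Figure D1:**
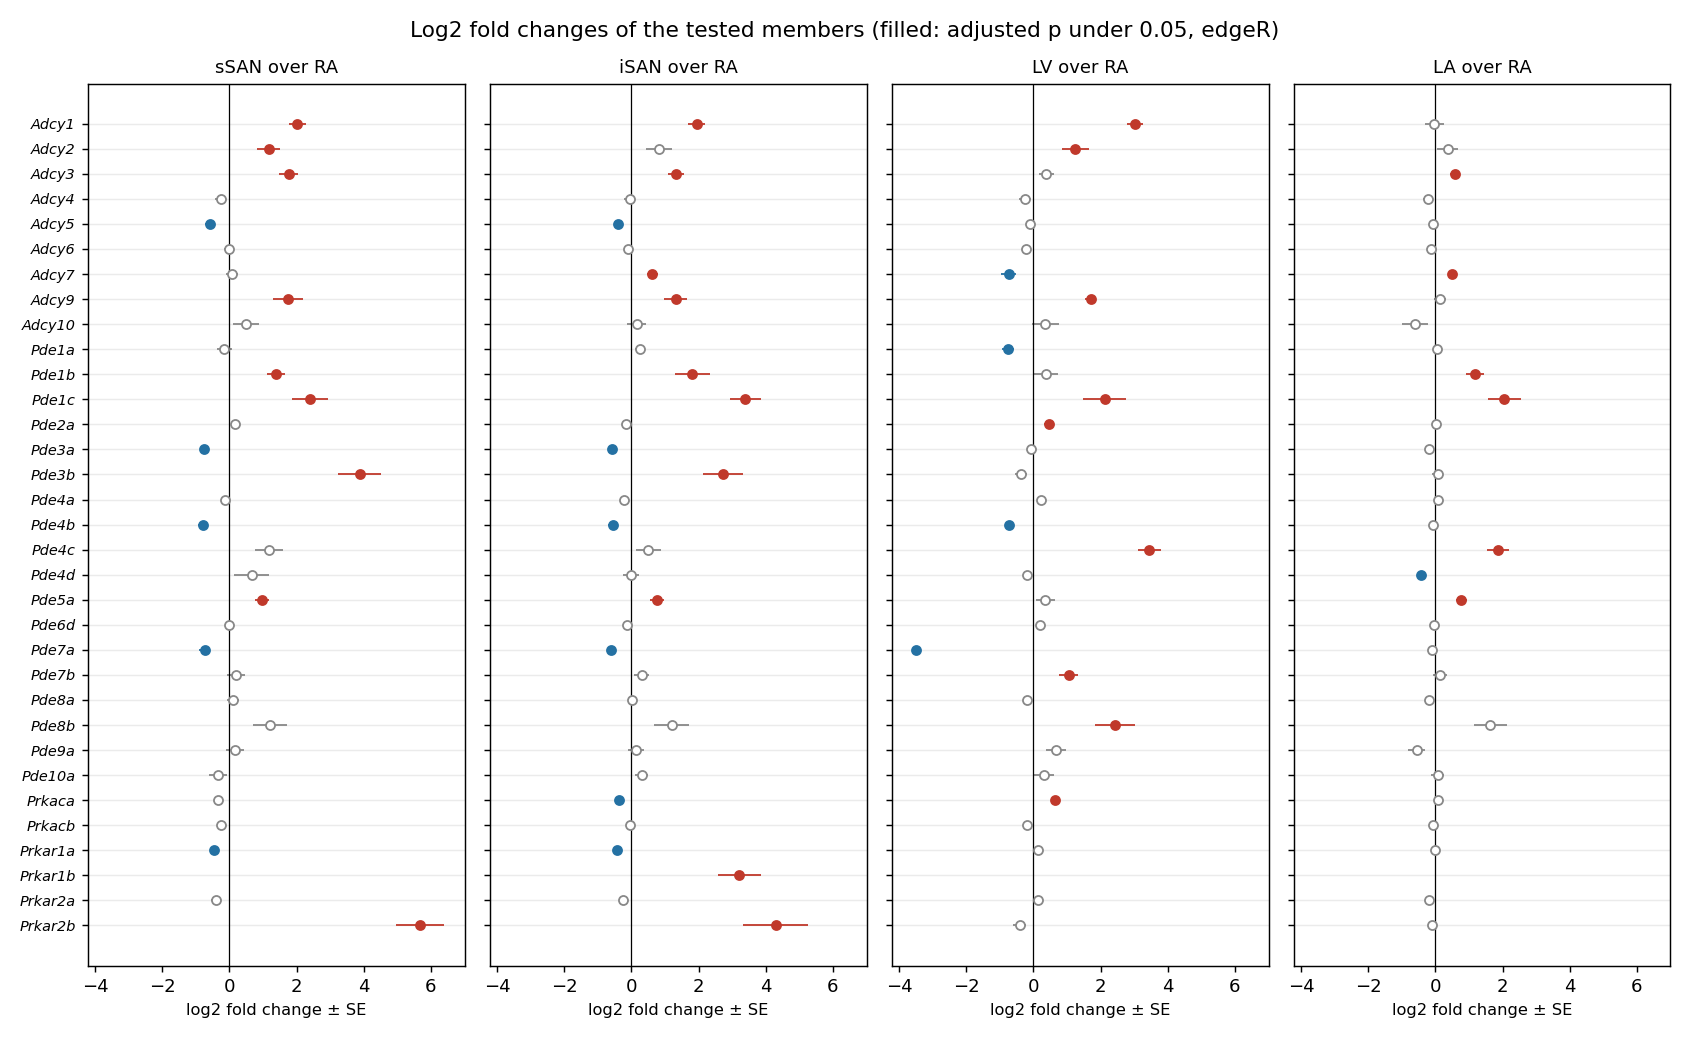
Log2 fold changes with their standard errors (edgeR) of the members that passed the filter, with 1 panel for each of sSAN, iSAN, LV and LA over the RA. Filled red points were called higher, filled blue points called lower and open points were not called, and members not tested in a comparison have no point. Prkar2b stands farthest right in both node panels (5.68 and 4.30) and Pde7a farthest left in the LV panel (-3.49).

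Against the LA as the second working atrium, 5 of 32 members were higher in the sSAN (15.6%, where 11.8% of all genes were) and 5 lower (15.6%, where 8.41% were), and 8 of 33 were higher in the iSAN (24.2%, where 10.4% were) and 7 lower (21.2%, where 6.72% were). In the LV against the LA, 8 of 33 were higher (24.2%, near the 22.1% of all genes) and 4 lower (12.1%, where 21.1% were). The median log2 fold change of the tested members was 0.13 for sSAN over RA, 0.16 for iSAN over RA, 0.21 for LV over RA and -0.00023 for LA over RA, beside medians over all genes of 0.02, 0.0068, -0.03 and -0.00059. The comparisons with the RA share its 4 libraries, as those with the LA share theirs, so they are not independent of each other.

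The largest difference of any member was that of Prkar2b, the regulatory subunit RII-beta of kinase A, known as the main regulatory subunit of fat cells and of parts of the brain (ENSRNOG00000009079, chromosome 6, 51265515 to 51356383, minus strand; coordinates here and below are as deposited, on the rat reference of release 98 that the study's methods name). Prkar2b was at 574, 946, 184 and 124 CPM in the sSAN of rats 1 to 4 and at 17.8, 466, 121 and 99.5 CPM in the iSAN, against 7.38 and 6.36 CPM in the LV of rats 3 and 4, 8.16, 9.53, 9.02 and 7.48 CPM in the LA and 7.02, 10.7, 9.64 and 8.80 CPM in the RA. Every node piece lay above every other piece, and the node pieces differed among themselves far more than the atria did. Over the RA, Prkar2b was 51.1-fold higher in sSAN pieces (log2 fold change 5.68 ± 0.70 SE, edgeR adjusted p = 0.00207) and 19.6-fold higher in iSAN pieces (4.30 ± 0.98 SE, edgeR adjusted p = 0.0284), in 4 of 4 rats each. The iSAN call was lost when iSAN rat 3 or any 1 of the 4 RA libraries was left out (log2 fold change 4.20 to 4.43, edgeR adjusted p 0.0620 to 0.0848) and with rat as a block (3.60, edgeR adjusted p = 0.0767).

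Prkar2b moved with the fat cell genes. The 3 node pieces with the highest Adipoq, sSAN of rats 2 and 1 and iSAN of rat 2 (1015, 930.3 and 662 CPM), were the 3 with the highest Prkar2b, and the piece with the lowest Adipoq, the iSAN of rat 1 (38.4 CPM), had the lowest. Of the 6 fat cell markers, 6 exceeded the RA in sSAN pieces and 5 did so in iSAN pieces, with summed levels of 1417 to 6996 CPM and 274.5 to 4076 CPM, against 151 to 201 CPM in the RA. Of 4 brown fat markers, 3 were tested, of which 3 exceeded the RA in sSAN pieces and 1 in iSAN pieces; Ucp1, the uncoupling protein that defines brown fat cells, reached 1550 CPM in the sSAN and 729 CPM in the iSAN of rat 2 and at most 0.145 CPM in the RA, while Elovl3 was at 0 in every region. With Adipoq CPM as a covariate, an alternative chosen after seeing the data, the log2 fold change of Prkar2b was 3.33 in the sSAN (edgeR adjusted p = 5.3e-05) and 1.30 in the iSAN (edgeR adjusted p = 0.245). With log2 Adipoq CPM, which nearly separates the regions (correlation with region 0.979 in the sSAN and 0.963 in the iSAN comparison), it was -0.37 and -3.42 and neither was called. The part of fat cells in the difference was not tested beyond this. Adipoq CPM without the log also followed region (correlation 0.753 in the sSAN and 0.724 in the iSAN comparison). With it as a covariate, calls over all genes fell too. They went from 3123 to 1680 of 14038 genes in the sSAN over the RA, and from 2330 to 581 of 14066 in the iSAN. Whether a call lost with this covariate, here or below, was lost through fat was not tested.

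**Figure D2:**
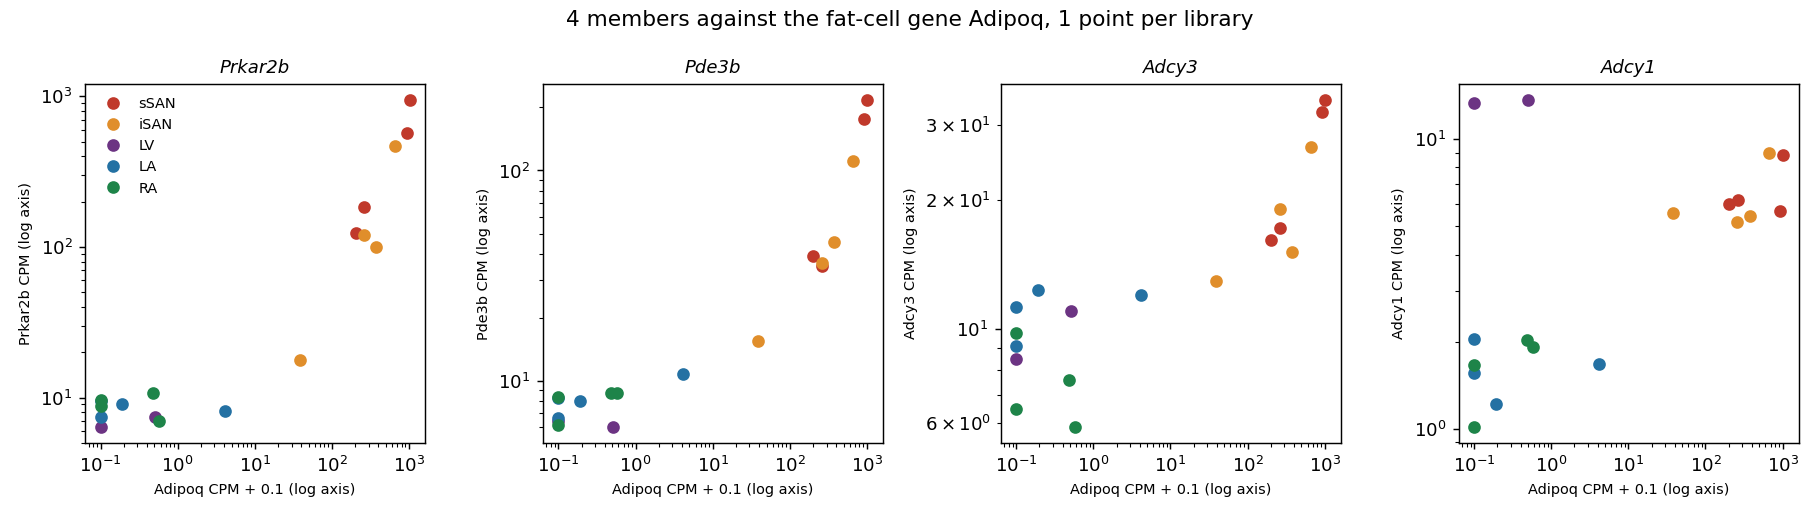
CPM of Prkar2b, Pde3b, Adcy3 and Adcy1 against Adipoq CPM plus 0.1 on log axes, with 1 point for each of the 18 libraries. Prkar2b and Pde3b are highest in the 3 node libraries with the most Adipoq, while Adcy1 is at 5.20 to 8.94 CPM in all 8 node libraries and highest in the LV, where Adipoq is at most 0.406 CPM.

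Prkar1a, the RI-alpha regulatory subunit that most cells use (ENSRNOG00000049876, chromosome 10, 97940705 to 97957336), had the highest FPKM (the deposited values scaled by gene length and library size, used here wherever genes are compared with each other) of the regulatory subunits in the iSAN, LV, LA and RA by region mean. Its CPM was 305, 283, 272 and 283 in sSAN pieces and 321, 273, 282 and 278 in the iSAN, against 448 and 439 in the LV, 386, 401, 411 and 378 in the LA and 389, 386, 427 and 391.9 in the RA. No node piece reached the lowest piece of working muscle. Against the RA, Prkar1a was lower in sSAN pieces (log2 fold change -0.47 ± 0.086 SE, edgeR adjusted p = 0.00618) and in iSAN pieces (-0.44 ± 0.079 SE, edgeR adjusted p = 0.00512), in 4 of 4 rats each, of which the iSAN call was lost with Adipoq CPM as a covariate (-0.31, edgeR adjusted p = 0.106), and it was not called in the LV (0.15 ± 0.078 SE) or the LA (-0.02 ± 0.056 SE) against the RA.

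The mix of regulatory subunits differed between pieces. Prkar2b made up 45.0% ± 21.2 of the summed FPKM of the 4 regulatory subunits in the sSAN (SD, n = 4) and 24.6% ± 20.8 in the iSAN, against 1.05% ± 0.102 in the LV (n = 2), 1.48% ± 0.121 in the LA and 1.53% ± 0.261 in the RA. Prkar1a made up 47.4% ± 18.9 in the sSAN and 63.6% ± 17.6 in the iSAN, against 85.0% ± 1.10 in the RA. In the sSAN the mean FPKM of Prkar2b (227) was above that of Prkar1a (188), but this order depends on the length used: the deposited FPKM of Prkar2b rests on a length shorter than the deposited gene length, and with the deposited length its sSAN mean was 126. Prkar2a, which encodes RII-alpha, was at 31.0 to 47.0 FPKM by region and was called in 1 pair only, higher in the LV than in the LA (log2 fold change 0.33). Prkar1b, the RI-beta subunit of neurons, had at most 2.15 CPM and exceeded the RA in iSAN pieces (3.21 ± 0.64 SE, edgeR adjusted p = 0.00845) and the LA likewise (1.70), with its highest level in the iSAN of rat 2; of the 10 neuron markers, the summed level was 15.3 to 109 CPM in the iSAN, against 13.98 to 19.3 CPM in the RA, where Th, Chrna3 and Snap25 were at 0. In both comparisons Prkar1b passed the filter on low counts through its iSAN libraries. It was not tested in the sSAN or the LA against the RA.

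**Figure D3:**
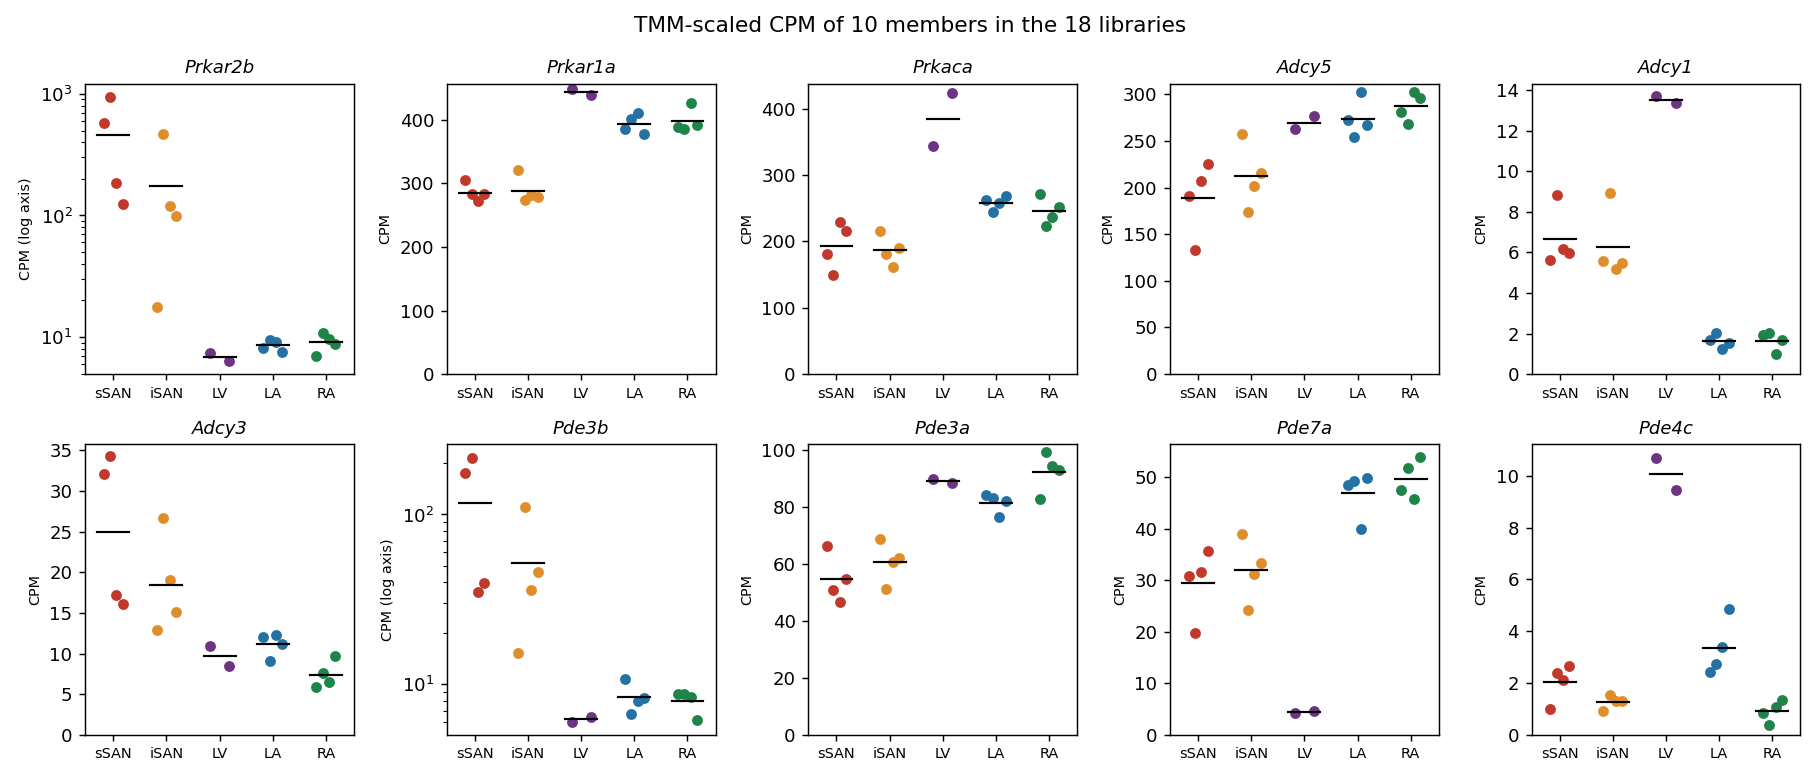
TMM-scaled CPM of 10 members in each library, with 1 point per rat (rats in order from left to right within a region), a bar at the mean, and a log axis for Prkar2b and Pde3b. The node pieces lie above all others for Prkar2b and Pde3b and below all others for Prkar1a, and the LV points stand alone for Pde7a (4.33 and 4.57 CPM) and for Pde4c (10.7 and 9.46 CPM).

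The catalytic subunits differed less. Prkaca, the C-alpha subunit and the more abundant catalytic subunit in every region (73.7% to 86.0% of the summed catalytic FPKM; ENSRNOG00000005257, chromosome 19, 25095089 to 25118860), was at 181, 149, 229 and 216 CPM in the sSAN and 216, 182, 161 and 190 CPM in the iSAN, against 344 and 424 CPM in the LV, 263, 245, 258 and 268 CPM in the LA and 272, 223, 237 and 252 CPM in the RA. The LV pieces were above all others, and the iSAN pieces below every RA piece. Prkaca was higher in the LV than in the RA (log2 fold change 0.64 ± 0.10 SE, edgeR adjusted p = 0.00052) and lower in iSAN pieces than in the RA (-0.37 ± 0.10 SE, edgeR adjusted p = 0.0341), and was not called in the sSAN (-0.33 ± 0.14 SE, edgeR adjusted p = 0.110). The iSAN call was lost when iSAN rat 2, 3 or 4 or RA rat 1, 3 or 4 was left out (log2 fold change -0.39 to -0.30, edgeR adjusted p 0.0570 to 0.09995) and with Adipoq CPM as a covariate (-0.25, edgeR adjusted p = 0.384). Prkacb, which encodes C-beta, was at 20.3 to 33.6 FPKM by region and was called in no comparison. The summed FPKM of regulatory over catalytic subunits was 4.52 ± 2.59 in the sSAN (SD, n = 4) and 2.96 ± 0.919 in the iSAN, against 1.82 ± 0.179 in the LV (n = 2), 2.18 ± 0.0936 in the LA and 2.31 ± 0.153 in the RA.

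The 250 bases before the RefSeq start of the 3 kinase A genes that these results turn on are shown because the genes have different patterns over the regions. Each is from the GRCr8 build, 5′ to 3′ on the gene's strand. Capitals mark TGACG or its reverse complement CGTCA, the core of the cyclic AMP response element, read on both strands.
Prkar2b (chr6:54381412-54381661, minus strand): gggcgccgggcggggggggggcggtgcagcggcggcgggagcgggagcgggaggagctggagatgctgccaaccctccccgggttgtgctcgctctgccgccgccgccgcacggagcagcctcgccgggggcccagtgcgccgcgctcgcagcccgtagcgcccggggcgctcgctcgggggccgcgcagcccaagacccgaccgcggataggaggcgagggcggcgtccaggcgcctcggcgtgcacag
Prkar1a (chr10:95120287-95120536, plus strand): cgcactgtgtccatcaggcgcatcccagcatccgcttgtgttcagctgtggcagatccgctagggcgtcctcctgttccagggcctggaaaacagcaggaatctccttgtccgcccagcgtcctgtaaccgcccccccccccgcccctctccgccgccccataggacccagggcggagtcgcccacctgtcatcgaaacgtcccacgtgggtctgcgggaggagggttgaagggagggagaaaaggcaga
Prkaca (chr19:41083190-41083439, minus strand): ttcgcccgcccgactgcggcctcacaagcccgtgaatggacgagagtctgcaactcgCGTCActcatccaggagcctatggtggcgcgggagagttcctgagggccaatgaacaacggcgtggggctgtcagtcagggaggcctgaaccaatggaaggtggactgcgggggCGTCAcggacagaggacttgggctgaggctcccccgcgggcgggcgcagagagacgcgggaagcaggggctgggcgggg
Prkaca holds 2 such cores, and Prkar2b and Prkar1a hold none in these windows. RefSeq windows were matched for 25 of the 37 symbols (36 windows). None held the full element TGACGTCA, which 1.59% of all 33469 rat windows of this length hold, and 22.2% of the 36 held a core, beside 18.2% of all windows. Prkar2b has the highest G and C content of the 3 (80.8%, beside 65.2% for Prkar1a and 67.6% for Prkaca).

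Among the adenylyl cyclases the bulk of the transcripts came from Adcy5 and Adcy6, the calcium-inhibited isoforms of heart muscle. Adcy5 (ENSRNOG00000002229, chromosome 11, 68695839 to 68842320) averaged 37.3 FPKM in the sSAN and 48.3 FPKM in the iSAN, against 40.5 FPKM in the LV, 59.8 FPKM in the LA and 63.3 FPKM in the RA, and Adcy6 18.1 to 30.6 FPKM by region. Adcy5 was at 191, 133, 207 and 225 CPM in the sSAN and 258, 174, 202 and 216 CPM in the iSAN, against 263 and 277 CPM in the LV, 272, 254, 303 and 267 CPM in the LA and 281, 268, 303 and 297 CPM in the RA. The sSAN and iSAN pieces lay below all RA pieces, and rat 2 gave the lowest piece of each node. Against the RA, Adcy5 was lower in sSAN pieces (log2 fold change -0.59 ± 0.15 SE, edgeR adjusted p = 0.0214) and the iSAN (-0.41 ± 0.12 SE, edgeR adjusted p = 0.0365), in 4 of 4 rats each. Leaving out RA rat 1, 3 or 4 ended the sSAN call (edgeR adjusted p 0.0514 to 0.0597), and leaving out iSAN rat 3 or 4 or any 1 RA library ended the iSAN call (edgeR adjusted p 0.0606 to 0.0991). With Adipoq CPM as a covariate both calls were lost, at -0.25 in the sSAN (edgeR adjusted p = 0.310) and -0.12 in the iSAN (edgeR adjusted p = 0.609). Against the LA, Adcy5 was called lower in the sSAN and not in the iSAN. That sSAN call was lost without sSAN rat 1 or any 1 LA library (edgeR adjusted p 0.0698 to 0.0939). Adcy6 was called in none of the 8 pairs (log2 fold change -0.21 to 0.10).

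Adcy1, a cyclase that calcium and calmodulin stimulate and that is best known from the brain (ENSRNOG00000059479, chromosome 14, 87312203 to 87421659), was low in both atria and higher in the nodes and the LV. It was at 5.64, 8.81, 6.15 and 5.96 CPM in the sSAN and 5.56, 8.94, 5.20 and 5.45 CPM in the iSAN, against 13.7 and 13.4 CPM in the LV, 1.67, 2.05, 1.22 and 1.55 CPM in the LA and 1.91, 2.02, 1.01 and 1.67 CPM in the RA. The LV pieces were above all node pieces and the node pieces above all atrial pieces. Over the RA, Adcy1 was 4.03-fold higher in sSAN pieces (log2 fold change 2.01 ± 0.25 SE, edgeR adjusted p = 0.00160), 3.85-fold higher in the iSAN (1.94 ± 0.26 SE, edgeR adjusted p = 0.00116) and 8.11-fold higher in the LV (3.02 ± 0.24 SE, edgeR adjusted p = 3.5e-06), and it did not differ detectably between the LA and the RA (-0.03 ± 0.28 SE). These calls with the RA were kept when any 1 library was left out and, in the nodes, with Adipoq CPM as a covariate (1.77 in the sSAN and 1.56 in the iSAN). Even so Adcy1 reached at most 2.87 FPKM in a region mean, 4.09% of the cyclase sum in the LV.

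Adcy3, a cyclase of olfactory neurons that fat cells also carry (ENSRNOG00000003999, chromosome 6, 28571351 to 28650148), was at 32.1, 34.3, 17.2 and 16.1 CPM in the sSAN and 12.9, 26.6, 19.0 and 15.1 CPM in the iSAN, against 10.97 and 8.48 CPM in the LV, 11.97, 9.08, 12.3 and 11.2 CPM in the LA and 5.88, 7.57, 6.46 and 9.75 CPM in the RA. The pieces with most Adipoq were again the highest. Over the RA it was higher in sSAN pieces (log2 fold change 1.76 ± 0.29 SE, edgeR adjusted p = 0.00427) and the iSAN (1.33 ± 0.24 SE, edgeR adjusted p = 0.00562), and LA pieces exceeded RA pieces too (0.58 ± 0.16 SE, edgeR adjusted p = 0.0431). The LA call was lost when RA rat 1, 2 or 3 or LA rat 1, 3 or 4 was left out (edgeR adjusted p 0.0829 to 0.117). With Adipoq CPM as a covariate, the log2 fold change was 0.86 in the sSAN (edgeR adjusted p = 0.0271) and 0.80 in the iSAN (edgeR adjusted p = 0.1005). Adcy3 overlaps Cenpo, a centromere protein gene on the opposite strand; the strand setting of the counting is not given in the sources used here, and Cenpo held 3 to 24 counts against 104 to 757 for Adcy3.

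Adcy7, a cyclase of blood and immune cells (ENSRNOG00000014776, chromosome 19, 19704859 to 19727081), was at 15.7, 9.51, 13.4 and 18.4 CPM in the sSAN and 23.3, 17.6, 26.2 and 15.1 CPM in the iSAN, against 10.6 and 5.63 CPM in the LV, 22.8, 18.5, 17.7 and 18.4 CPM in the LA and 15.1, 13.9, 13.7 and 11.6 CPM in the RA. All LA pieces were above all RA pieces and the LV pieces below them. Adcy7 was higher than in the RA in the LA (log2 fold change 0.50 ± 0.11 SE, edgeR adjusted p = 0.0128) and the iSAN (0.63 ± 0.17 SE, edgeR adjusted p = 0.0310), and lower in the LV (-0.74 ± 0.23 SE, edgeR adjusted p = 0.0239). The 4 macrophage markers summed to 145 to 169 CPM in the iSAN, 19.3 to 45.2 CPM in the LV and 74.2 to 90.2 CPM in the LA, against 96.1 to 131 CPM in the RA, and their part in these differences was not tested. The LV call was lost in the 70-day rats alone, the age of both LV pieces (-0.64, edgeR adjusted p = 0.122), and without LV rat 4 (-0.37, edgeR adjusted p = 0.152) or RA rat 1 or 2 (edgeR adjusted p from 0.0520), and the iSAN call without iSAN rat 1 or 3 or any 1 RA library (edgeR adjusted p 0.0508 to 0.0848). Over the RA, Adcy9 was higher in sSAN (1.75), iSAN (1.31) and LV pieces (1.71), and Adcy2 in sSAN (1.17) and LV pieces (1.25). In the nodes Adcy9 was highest in rat 2 (31.4 CPM in the sSAN and 20.2 CPM in the iSAN), and with Adipoq CPM as a covariate it was not called (0.43 and 0.49). Adcy4 and Adcy10, the bicarbonate-stimulated soluble cyclase, were called in no pair.

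Among the phosphodiesterases the node pieces had more of Pde3b, Pde1b, Pde1c and Pde5a and less of Pde3a, Pde4b and Pde7a than the RA, in both nodes. Pde3b, the insulin-regulated phosphodiesterase of fat and liver cells (ENSRNOG00000011417, chromosome 1, 183892841 to 184078071), was at 175, 216, 35.0 and 39.4 CPM in the sSAN and 15.4, 111, 36.2 and 45.9 CPM in the iSAN, against 6.03 and 6.45 CPM in the LV, 10.8, 6.67, 8.03 and 8.28 CPM in the LA and 8.74, 8.72, 8.39 and 6.18 CPM in the RA. As for Prkar2b, every node piece lay above every other piece, and the order among node pieces was led by the same 3 libraries. Over the RA it was 14.7-fold higher in sSAN pieces (log2 fold change 3.88 ± 0.65 SE, edgeR adjusted p = 0.00531) and 6.57-fold higher in the iSAN (2.72 ± 0.60 SE, edgeR adjusted p = 0.0259). The iSAN call was lost without iSAN rat 4 or any 1 RA library (edgeR adjusted p 0.0502 to 0.0761) and with rat as a block (2.43, edgeR adjusted p = 0.0754). With Adipoq CPM as a covariate, the log2 fold change was 1.49 in the sSAN (edgeR adjusted p = 0.00063) and 0.91 in the iSAN (edgeR adjusted p = 0.0132).

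Pde1c, a calcium-calmodulin-activated enzyme that cleaves both cyclic nucleotides (ENSRNOG00000012337, chromosome 4, 86359820 to 86630543), was rare, and was lowest in the RA. It was at 1.23, 1.996, 0.595 and 1.30 CPM in the sSAN and 3.10, 1.77, 3.33 and 1.82 CPM in the iSAN, against 1.15 and 0.979 CPM in the LV, 1.47, 0.982, 1.04 and 0.565 CPM in the LA and 0.382, 0.0482, 0.193 and 0.333 CPM in the RA. The RA pieces lay below all 14 others. With such RA levels Pde1c passed the filter on low counts through the other region of each pair with the RA. Pde1c was higher than in the RA in the sSAN (log2 fold change 2.39 ± 0.54 SE, edgeR adjusted p = 0.0144), iSAN (3.39 ± 0.47 SE, edgeR adjusted p = 0.00131), LV (2.12 ± 0.63 SE, edgeR adjusted p = 0.0178) and LA (2.05 ± 0.49 SE, edgeR adjusted p = 0.0228). The LV call was lost without LV rat 3 or 4 (edgeR adjusted p 0.119 and 0.0741) and the LA call without RA rat 3 or LA rat 1 (edgeR adjusted p 0.0619 and 0.0702). The sSAN call was lost in the 70-day rats alone (1.82, edgeR adjusted p = 0.131) and with Adipoq CPM as a covariate (1.74, edgeR adjusted p = 0.143). Over the RA, Pde1b of the same family was higher in sSAN (1.38), iSAN (1.82) and LA pieces (1.18), and so was Pde5a, the cyclic GMP enzyme of smooth muscle (0.97, 0.76 and 0.77). With Adipoq CPM as a covariate neither Pde1b (1.01 in the sSAN and 1.32 in the iSAN) nor Pde5a (0.44 and 0.40) was called in a node. The 4 smooth muscle markers all exceeded the RA in both nodes, and 2 of them in LA pieces, and their part was not tested.

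Pde1a, the most abundant member of the calcium-calmodulin family (ENSRNOG00000054212, chromosome 3, 66803247 to 66885094), was at 12.6, 17.2, 19.7 and 27.6 CPM in the sSAN and 28.8, 24.1, 29.1 and 19.7 CPM in the iSAN, against 14.3 and 11.4 CPM in the LV, 21.0, 24.7, 19.3 and 25.2 CPM in the LA and 19.4, 27.2, 18.7 and 21.2 CPM in the RA. The LV pieces were below all LA, RA and iSAN pieces, and the sSAN of rat 1 lay between them. Pde1a was lower there than in the RA (log2 fold change -0.75 ± 0.18 SE, edgeR adjusted p = 0.00572) and than in the LA (-0.81 ± 0.15 SE, edgeR adjusted p = 0.00150), in 2 of 2 rats, and without LV rat 4 the call against the RA was lost (-0.60, edgeR adjusted p = 0.0695).

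Pde3a, the cyclic GMP-inhibited enzyme of cardiac muscle and platelets, had the highest FPKM of the phosphodiesterases by the mean over all libraries (ENSRNOG00000025042, chromosome 4, 175431904 to 175700238). In the sSAN its mean share of the family's FPKM (11.7%) was below that of Pde3b (17.1%). Pde3a was at 66.2, 50.9, 46.8 and 54.6 CPM in the sSAN and 68.9, 51.1, 60.8 and 62.0 CPM in the iSAN, against 89.8 and 88.5 CPM in the LV, 84.2, 83.4, 76.5 and 82.3 CPM in the LA and 82.9, 99.4, 94.6 and 93.1 CPM in the RA. No node piece reached a piece of working muscle. Against the RA, Pde3a was lower in sSAN pieces (log2 fold change -0.75 ± 0.12 SE, edgeR adjusted p = 0.00329) and the iSAN (-0.58 ± 0.0999 SE, edgeR adjusted p = 0.00414), and both calls were kept when any 1 library was left out. Its sSAN difference was -0.90 with Adipoq CPM as a covariate (edgeR adjusted p = 0.00707), and its iSAN difference -0.35 (edgeR adjusted p = 0.107).

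Pde4b, a cyclic AMP-specific enzyme (ENSRNOG00000005905, chromosome 5, 121952977 to 122136814), was at 23.4, 16.8, 22.9 and 24.9 CPM in the sSAN and 33.1, 21.9, 22.2 and 25.5 CPM in the iSAN, against 22.7 and 24.2 CPM in the LV, 40.1, 35.8, 32.6 and 36.9 CPM in the LA and 41.0, 43.5, 32.9 and 36.2 CPM in the RA. Nodes and LV were both below the atria, except that the iSAN of rat 1 overlapped both atria. The log2 fold changes over the RA were -0.79 ± 0.14 SE in the sSAN (edgeR adjusted p = 0.00493), -0.55 ± 0.15 SE in the iSAN (edgeR adjusted p = 0.0284) and -0.72 ± 0.13 SE in the LV (edgeR adjusted p = 0.00086). The iSAN call was lost without iSAN rat 2, 3 or 4 or RA rat 1, 2 or 4 (edgeR adjusted p 0.0546 to 0.0822). Both node calls were lost with Adipoq CPM as a covariate (-0.58 in the sSAN, edgeR adjusted p = 0.0651, and -0.27 in the iSAN, edgeR adjusted p = 0.454).

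Pde7a, a cyclic AMP-specific enzyme of high affinity known from T cells and muscle (ENSRNOG00000013048, chromosome 2, 104045811 to 104134101), separated atria from ventricle. It was at 30.8, 19.9, 31.7 and 35.7 CPM in the sSAN and 39.0, 24.2, 31.3 and 33.5 CPM in the iSAN, against 4.33 and 4.57 CPM in the LV, 48.5, 49.4, 40.0 and 49.97 CPM in the LA and 47.5, 51.8, 45.8 and 53.9 CPM in the RA. The node pieces fell between the LV and the atria with no overlap on either side. Pde7a was 11.2-fold lower in the LV than in the RA (log2 fold change -3.49 ± 0.13 SE, edgeR adjusted p = 2.1e-08) and 10.6-fold lower than in the LA (-3.40 ± 0.15 SE, edgeR adjusted p = 6.1e-08). Against the RA it was lower in sSAN pieces (-0.74 ± 0.16 SE, edgeR adjusted p = 0.0119) and the iSAN (-0.61 ± 0.13 SE, edgeR adjusted p = 0.0130), and with Adipoq CPM as a covariate both node calls were lost (-0.40, edgeR adjusted p = 0.179, and -0.27, edgeR adjusted p = 0.283). Pde7b, its paralog, went the other way in the LV (1.05 over the RA and 0.90 over the LA). Pde7a made up 10.1% ± 4.04 of the phosphodiesterase FPKM in the sSAN (SD, n = 4) and 11.6% ± 2.60 in the iSAN, against 1.71% ± 0.162 in the LV (n = 2), 16.2% ± 0.900 in the LA and 16.7% ± 0.772 in the RA.

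**Figure D4:**
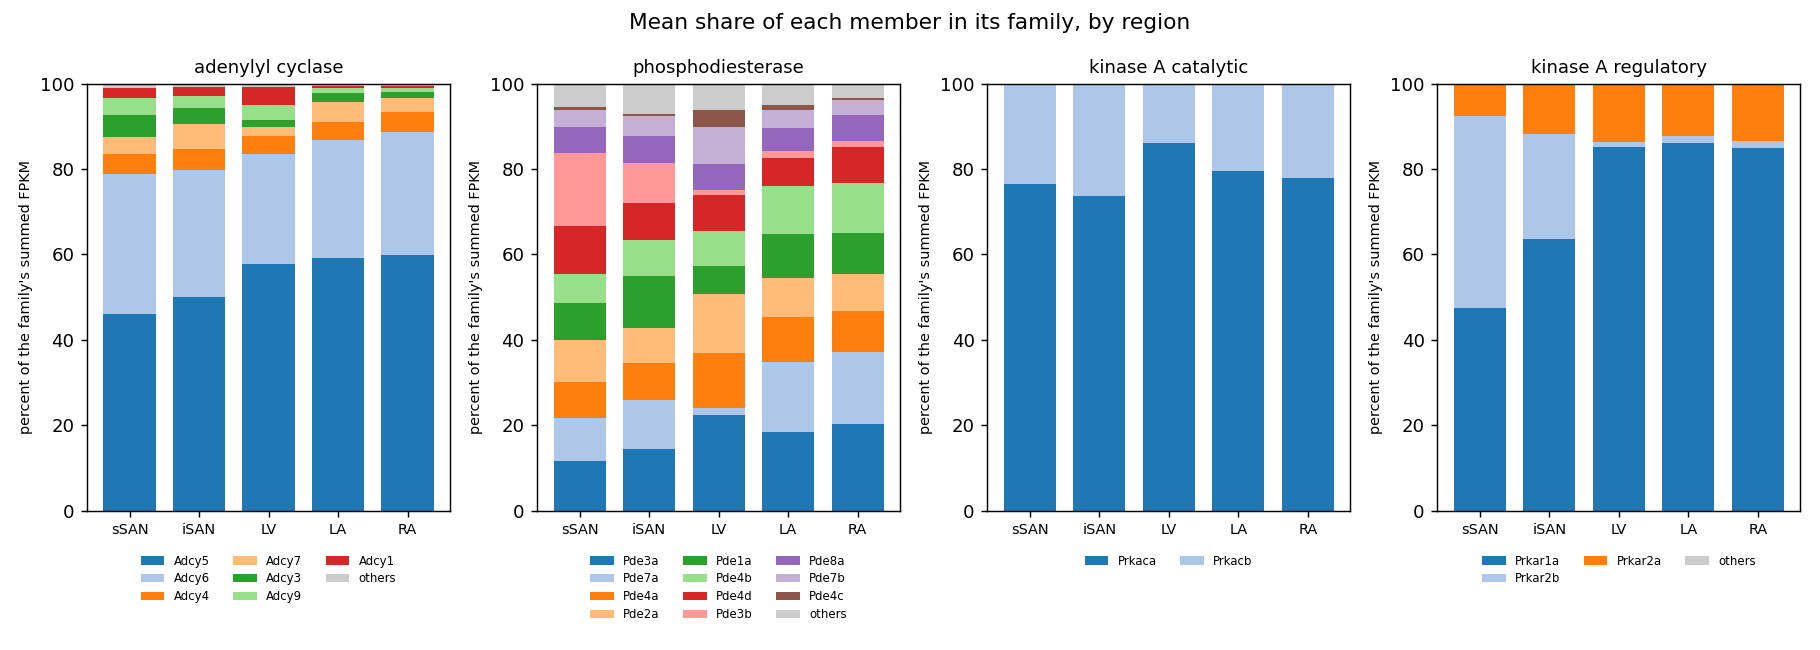
Mean share of each member in the summed FPKM of its family by region, in percent, with members under 4% in every region pooled as others. Prkar2b takes 45.0% of the regulatory subunits in the sSAN and 1.53% in the RA, and Pde7a 1.71% of the phosphodiesterases in the LV and 16.7% in the RA.

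Pde4c (ENSRNOG00000019518, chromosome 16, 20442609 to 20460959), the least abundant of the cyclic AMP-specific family 4 here, went the other way from Pde7a in the LV. It was at 1.02, 2.41, 2.13 and 2.64 CPM in the sSAN and 0.905, 1.55, 1.30 and 1.33 CPM in the iSAN, against 10.7 and 9.46 CPM in the LV, 2.43, 2.74, 3.38 and 4.85 CPM in the LA and 0.860, 0.386, 1.06 and 1.33 CPM in the RA. The LV pieces were highest, and LA pieces lay above all RA pieces. It was 10.97-fold higher in the LV (log2 fold change 3.46 ± 0.34 SE, edgeR adjusted p = 1.7e-05) and 3.64-fold higher in the LA (1.87 ± 0.34 SE, edgeR adjusted p = 0.00458) than in the RA, calls that were kept when any 1 library was left out, and was not called in the sSAN (1.17, edgeR adjusted p = 0.0709) or iSAN (0.50) against the RA. Pde4d (ENSRNOG00000042536, chromosome 2, 40554146 to 41464264), the family member bound to the ryanodine receptor in heart muscle, was at 44.1, 75.8, 11.7 and 17.5 CPM in the sSAN and 18.8, 37.0, 16.6 and 21.1 CPM in the iSAN, against 19.0 and 23.2 CPM in the LV, 16.9, 19.2, 14.6 and 20.9 CPM in the LA and 20.8, 24.5, 25.3 and 24.6 CPM in the RA. The sSAN pieces of rats 1 and 2 were above and those of rats 3 and 4 below all RA pieces, and Pde4d was not called in either node. It was lower in the LA than in the RA (-0.42 ± 0.11 SE, edgeR adjusted p = 0.0371), a call that was lost without RA rat 2, 3 or 4 or LA rat 1, 2 or 3 (edgeR adjusted p 0.0566 to 0.0927).

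In the LV, besides these, Pde8b (log2 fold change 2.42) and Pde2a (0.47), which cyclic GMP stimulates, were higher than in the RA, and Pde2a (0.45), Pde9a (1.23) and Prkar2a (0.33) higher than in the LA. Pde8b was rare in the RA (0.141 FPKM on average, beside 0.528 FPKM in the LV). Against the RA it passed the filter on low counts through its LV libraries. The LV counts depend on the scaling. With library totals in place of TMM factors, an alternative added after seeing the data, the median of all genes moved to -0.57 for LV over RA. The members then split into 5 higher and 16 lower, which is 65.6% of the 32 tested, where 67.4% of all genes were called on that scaling, and Prkaca was at 0.09 (edgeR adjusted p = 0.413), which is 0.66 above that median. Directions of Pde7a, Pde4b, Pde1a, Adcy7, Adcy1, Adcy9, Pde4c, Pde1c and Pde8b in the LV were the same on both scalings, while Pde2a was at -0.06 on library totals. In the FPKM values, which carry no such correction, Prkaca averaged 126 in the LV and 119 in the RA.

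The 6 named members that were called lower in a node than in the RA were also set beside the cardiomyocyte markers of the piece. The sSAN of rat 2 had the lowest summed level of these markers (10180 CPM) and the lowest Adcy5, Pde4b, Pde7a and Prkaca of all node and atrial pieces, while Pde3a and Prkar1a were lowest in the sSAN of rat 3, which had 18760 CPM of the markers. The sum of these markers is mostly Myh6, so that ratios to it are largely ratios to that gene. Set against that sum, a measure chosen after the values were seen and given with no test, Adcy5 was at 11.01 to 13.04 CPM per 1000 CPM of the 4 markers in the sSAN and 9.61 to 11.4 in the iSAN, against 9.37 to 10.1 in the RA. Pde3a was at 2.49 to 5.00 in the sSAN and 2.76 to 3.42 in the iSAN, against 2.85 to 3.48 in the RA, Pde4b at 1.22 to 1.65 and 1.13 to 1.47, against 1.10 to 1.52, and Pde7a at 1.69 to 1.98 and 1.49 to 1.76, against 1.53 to 1.81. Prkaca was at 10.99 to 14.6 in the sSAN and 8.44 to 11.3 in the iSAN, against 7.82 to 9.34 in the RA, and Prkar1a at 14.4 to 27.8 and 12.4 to 16.98, against 12.4 to 14.2. The sSAN ratios spread most for Pde3a and Prkar1a. The part of muscle content in the differences was not tested. For Pde7a in the LV the same measure was 0.119 to 0.128.

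**Figure D5:**
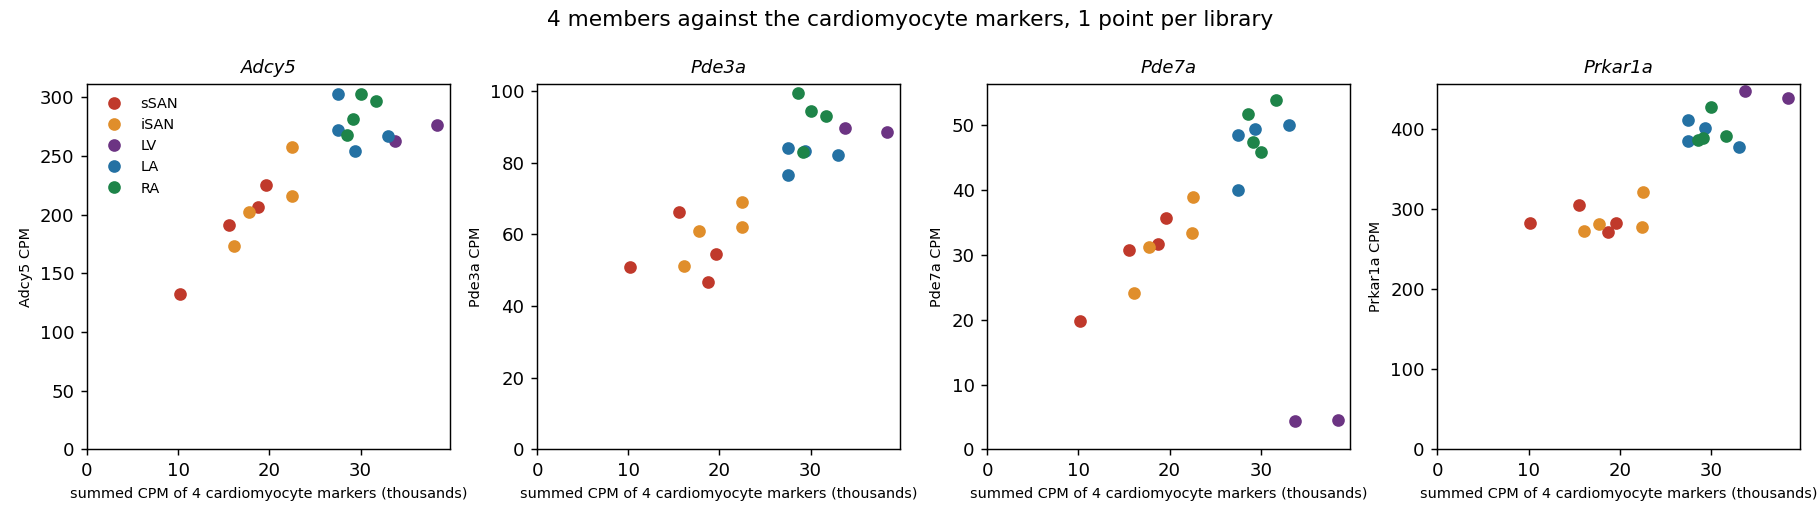
CPM of Adcy5, Pde3a, Pde7a and Prkar1a against the summed CPM of 4 cardiomyocyte markers (Tnnt2, Actn2, Ryr2 and Myh6, of which Myh6 is the largest part), with 1 point for each of the 18 libraries. The 8 node libraries lie at 10180 to 22510 CPM of the markers and below the RA on both axes, and the LV points of Pde7a lie at 4.33 and 4.57 CPM although their marker sums are the highest.

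No member was called between the sSAN and the iSAN, where 1 of 14301 genes was (0.00699%). At an unadjusted edgeR p under 0.05 there were 5 of 33 members, where 9.78% of all genes passed, and DESeq2 also called 0 members, where it called 1.03% of all genes. Their log2 fold changes of sSAN over iSAN were 0.34 ± 0.11 SE for Pde2a, -0.54 ± 0.23 SE for Adcy7, -0.65 ± 0.25 SE for Pde10a, -0.99 ± 0.39 SE for Pde1c and -1.10 ± 0.43 SE for Prkar1b. Prkar2b (1.38) and Pde3b (1.16) had the largest positive fold changes, with both groups spread widely.

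The families were also summed in FPKM. Adenylyl cyclases summed to 80.1 ± 11.3 FPKM in the sSAN (SD, n = 4) and 96.0 ± 8.75 in the iSAN, against 70.2 ± 3.83 in the LV (n = 2), 101 ± 5.11 in the LA and 106 ± 3.22 in the RA. Phosphodiesterases, without Pde6d, which encodes a prenyl-binding protein and no catalytic subunit, summed to 131 ± 25.2 FPKM in the sSAN and 136 ± 0.483 in the iSAN, against 84.7 ± 8.55 in the LV, 136 ± 6.42 in the LA and 142 ± 9.25 in the RA. These sums overlapped between the nodes and the atria for the phosphodiesterases. The cyclase sums of the iSAN (85.5 to 106.6 FPKM) overlapped those of the LA (94.9 to 105.6 FPKM) and the RA (102.3 to 110.0 FPKM). Those of the sSAN (67.5 to 91.3 FPKM) lay below both. FPKM values carry no TMM correction, which bears on the order of the LV, and the cyclase sum of the sSAN of rat 2 (67.5 FPKM) was below that of the LV of rat 3 (72.9 FPKM). Catalytic subunits summed to 107 ± 20.4 FPKM in the sSAN and 125 ± 11.3 in the iSAN, against 146 ± 7.05 in the LV, 155 ± 1.58 in the LA and 152 ± 6.53 in the RA. Regulatory subunits summed to 447 ± 169 FPKM in the sSAN and 365 ± 83.1 in the iSAN, against 265 ± 13.4 in the LV, 338 ± 16.2 in the LA and 350 ± 9.74 in the RA. The node sums depend on the length used for Prkar2b: with the deposited gene lengths the regulatory sum was 339 FPKM in the sSAN and 311.5 FPKM in the iSAN, against 338 FPKM in the RA, and the ratio of regulatory to catalytic sums was 3.37 and 2.51, against 2.23.

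Other genes of the pathway were counted in 8 lists. Over these, 12 of 61 tested genes exceeded the RA in sSAN pieces (19.7%, where 13.8% of all genes did) and 11 were lower there (where 8.48% of all genes were). In iSAN pieces 6 of 60 were higher (near the 10.4% of all genes) and 9 lower (15.0%, where 6.16% were). In the LV 19 of 59 were higher (32.2%, where 23.5% were) and 14 lower (23.7%, near the 22.7% of all genes), and in the LA 4 were higher (6.78%, where 4.37% were) and 3 lower (5.08%, where 4.26% were). Upstream of the cyclases, Gnas, the stimulatory G protein, averaged 1797 ± 1126 CPM in the sSAN (SD, n = 4) and 717 ± 511 CPM in the iSAN, against 433 ± 26.4 CPM in the RA, and Adrb3, the beta-adrenergic receptor of fat cells, 28.7 ± 15.9 CPM and 11.7 ± 10.03 CPM, against 0 in all RA libraries. Chrm2, the muscarinic receptor through which the vagus slows the heart, averaged 105 ± 22.4 CPM in the sSAN and 150.1 ± 15.7 CPM in the iSAN, against 60.0 ± 1.34 CPM in the LV and 206 ± 12.8 CPM in the RA, and Gnao1, an inhibitory G protein subunit, 96.6 ± 23.2 CPM and 109.8 ± 16.7 CPM, against 17.04 ± 3.70 CPM and 146 ± 12.5 CPM.

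Of the 11 anchoring proteins that hold kinase A in place, 2 exceeded the RA in sSAN pieces (where 13.8% of all genes did) and 4 were lower (where 8.48% were). In iSAN pieces 1 was higher (where 10.4% of all genes were) and 2 lower (where 6.16% were). Akap12 averaged 63.4 ± 8.34 CPM in the sSAN and 100.4 ± 18.2 CPM in the iSAN, against 37.4 ± 2.17 CPM in the RA, and Akap13 159 ± 8.37 CPM and 185 ± 15.7 CPM, against 218 ± 3.68 CPM. Of the kinase A inhibitor peptides, Pkia averaged 332 ± 69.2 CPM in the sSAN and 424 ± 64.2 CPM in the iSAN, against 487 ± 24.3 CPM in the RA, while Pkib was under 1 CPM on average in every region. Rapgef4, a cyclic AMP receptor that acts beside kinase A, averaged 7.87 ± 0.539 CPM in the sSAN and 8.64 ± 1.00 CPM in the iSAN, against 23.1 ± 1.31 CPM in the LV, 13.7 ± 0.780 CPM in the LA and 4.38 ± 0.378 CPM in the RA, and its relative Rapgef3 was at 23.6 ± 1.34 CPM in the LV and 10.8 ± 1.37 CPM in the RA.

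Among 11 kinase A substrates and phosphatases of the myocyte, none was higher and 2 were lower in each node than in the RA. Of all genes, 8.48% were lower in the sSAN and 6.16% in the iSAN. In the LV 5 of the 11 were higher (where 23.5% of all genes were) and 1 lower (where 22.7% were). Pln, which encodes phospholamban, the brake on the calcium pump, averaged 4697 ± 473 CPM in the LV (SD, n = 2) and 1436 ± 165 CPM in the RA (n = 4), and Cacna1c, the L-type calcium channel, 135 ± 18.4 CPM and 95.2 ± 9.69 CPM. For cyclic GMP, Nos1, a nitric oxide synthase, averaged 6.21 ± 4.14 CPM in the sSAN and 13.1 ± 3.55 CPM in the iSAN, against 4.62 ± 3.19 CPM in the RA, and Npr1, the natriuretic peptide receptor, 38.4 ± 3.05 CPM and 33.6 ± 4.49 CPM, against 26.4 ± 2.67 CPM. Of 9 genes of cyclic AMP-responsive transcription, 3 were called among the 5 regions, where 55.3% of all genes were. Crtc2 averaged 23.6 ± 2.63 CPM in the sSAN and 18.3 ± 0.497 CPM in the RA, and Crtc1 8.35 ± 1.63 CPM and 10.7 ± 1.10 CPM.

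The number of calls depended on few libraries in some pairs. In the iSAN against the RA, 7 to 16 members were called when 1 library was left out, with 7 without RA rat 1 or RA rat 4, 8 without RA rat 2, RA rat 3 or iSAN rat 3 and 10 without iSAN rat 4. In these fits 10.1% to 21.1% of all genes were called, beside 16.6% with all 8 libraries. Within ages the 59-day rats alone gave 0 calls in the iSAN and 13 for sSAN over RA, and the 70-day rats alone gave 12 and 11, where 0.219%, 22.5%, 11.7% and 12.1% of all genes were called, so that the 0 in the iSAN says nothing about the members. In the LA against the RA, 3 members were called without LA rat 1, 10 with rat as a block (7 higher and 3 lower), and 2 and 1 within the 59-day and the 70-day rats, where 6.65%, 17.9%, 4.35% and 2.74% of all genes were called, beside 8.64% in the fit of all 8 libraries. The LA calls of Adcy7, Adcy3, Pde1c and Pde4d were lost within either age.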

How the data were processed

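RNA of 18 rat heart pieces was sequenced with paired-end reads. The authors aligned reads with HISAT2 and made the deposited raw count values per gene with HTSeq 0.6.1. FPKM values are the authors' own, taken as deposited; for 25 of 38 members they equal the count over the deposited gene length and library total within 1%, and for the other 13 the length used is not given in the sources used here. Left out were 72 further columns of per-sample values, 5 of region means, and 40 of the authors' own comparisons (fold changes and p-values).

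In R 4.3.3, edgeR 4.0.16 tested all genes on counts with TMM scaling, its filter on low counts, and the quasi-likelihood test with robust spread on the 2 regions compared (18 libraries for the 5-region test). Genes were called at a Benjamini-Hochberg adjusted p under 0.05 over all genes tested. The totals of 17334954 to 24252103 counts per library set the precision, so that members near 1 CPM carry wide counting error. Alternatives replaced edgeR by DESeq2 1.42.0, TMM by RLE size factors, or dropped the filter, and others took all 5 regions in 1 fit, rat as a block, each age alone, log2 Adipoq CPM as a covariate, or left out each library in turn; library totals without TMM and Adipoq CPM as a covariate were added after seeing the data. The steps were also run on simulated counts. These had the same spread in both regions and no pairing of rats, so that they do not cover the wider spread of the node pieces.

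Title endings shared by libraries of different regions were taken as the same rat. Deviations from region means over 15291 genes correlated at 0.203 to 0.245 between LA and RA of the same rat, 0.116 to 0.166 between sSAN and RA, 0.119 to 0.213 between iSAN and RA, 0.0941 to 0.193 between sSAN and LA, 0.0865 to 0.228 between iSAN and LA and -0.0162 to 0.451 between sSAN and iSAN; between different rats the mean was -0.0742 to -0.047.

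Values of every library are printed for members called among the 5 regions with at least 1 FPKM in a region (up to 4 cyclases, 4 phosphodiesterases and 3 kinase A subunits of the smallest p), for the highest FPKM of each family, and for the 2 highest and 2 lowest called log2 fold changes of sSAN, iSAN, LV and LA over the RA with at least 1 CPM. Pathway genes named are up to 2 called genes of each list with the smallest p over the 5 regions. Members and lists were chosen with earlier results of these data known. Of 129 listed genes, 125 were in the table, and Gnas stands in it in 2 entries, of which the abundant one is printed. Promoter windows are RefSeq's of GRCr8 and were not placed on the build of the files.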

Additional observations from a re-analysis of the deposited data

Results flagged for a closer look

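Within regions of 4 libraries, 7 of 60 groups of values of the named members held a library apart from the rest by Dixon's ratio (the gap to the nearest library over the whole range), and chance gives about 1 in 20. Adcy1 in the sSAN was highest in rat 2 (8.81 CPM, others 5.64 to 6.15, ratio 0.838), and Adcy1 in the iSAN was highest in the same rat (8.94 CPM, others 5.20 to 5.56, ratio 0.903). Adcy7 in the LA was highest in rat 1 (22.8 CPM, others 17.7 to 18.5, ratio 0.849), and Pde7a in the LA lowest in rat 3 (40.0 CPM, others 48.5 to 49.97, ratio 0.852). In the RA, Pde3b was lowest in rat 4 (6.18 CPM, others 8.39 to 8.74, ratio 0.863), Pde4d lowest in rat 1 (20.8 CPM, others 24.5 to 25.3, ratio 0.834) and Prkar1a highest in rat 3 (427 CPM, others 386 to 391.9, ratio 0.864).

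A test of whether a difference between regions itself differed between the ages called 4 of 195 terms at an edgeR adjusted p under 0.05, each with 2 rats of an age. The share of all genes called in that test is not given here, so that the count says nothing about the members as a group. The log2 fold change of Pde3b over the RA in the sSAN was 2.15 lower in the 70-day rats than in the 59-day rats (-2.145, edgeR adjusted p = 0.00431), and over the LA -2.312 (edgeR adjusted p = 0.013). That of Pde4d over the RA in the sSAN differed by -2.182 (edgeR adjusted p = 0.05 as rounded), and that of Adcy3 over the LA in the sSAN by -1.162 (edgeR adjusted p = 0.0334). In the same sSAN pieces Adipoq was at 261 and 203 CPM in the 70-day rats and at 930.3 and 1015 CPM in the 59-day rats, and the part of fat in these terms was not tested.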

How the results depend on the processing

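Of 1031 alternatives run on the 62 calls of named members, 809 kept the call, 209 lost it with the direction kept and 13 reversed the direction. All 13 used log2 Adipoq CPM as a covariate, which left 0 members called for either node over the RA or the LA, and 0 to 2 of all genes, so that these counts say nothing about the members. In that fit the log2 fold changes over the RA in the sSAN were 0.66 for Adcy5, -3.02 for Pde3b, 0.22 for Pde7a and -0.37 for Prkar2b. Over the RA in the iSAN they were 0.51 for Adcy5, 0.054 for Prkar1a, 0.027 for Pde3a, -2.17 for Pde3b, 0.21 for Pde7a and -3.42 for Prkar2b. Over the LA, Adcy3 was at -0.18 in sSAN and -0.17 in iSAN pieces, and Pde3b at -0.40 in the iSAN. With Adipoq CPM, 4 members were called in the iSAN over the RA and 4 over the LA (12.1% each), where 4.13% and 5.5% of all genes were. In the sSAN, 10 of 32 members were called over the RA (31.2%), where 1680 of 14038 genes were. Over the LA 7 of 32 were called there (21.9%), where 11.6% of all genes were.

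The 59-day rats alone gave 0 calls in the iSAN over the RA and 0 over the LA (where 0.219% and 0.0908% of all genes were called) and 2 for LA over RA (where 4.35% were). The 70-day rats alone gave 6 for sSAN over LA, 9 for iSAN over LA (where 8.7% and 12.3% of all genes were) and 1 for LA over RA (where 2.74% were). The fit of all 5 regions gave 2 for LA over RA (where 3.58% of all genes were called), and library totals gave 21 for LV over RA and 22 for LV over LA (65.6% and 66.7% of members, where 67.4% and 65.1% of all genes were called). Without 1 library, 7 to 16 members were called for iSAN over RA, 5 to 15 for iSAN over LA, and 3 to 6 for LA over RA. In these fits 10.1% to 21.1%, 11.3% to 20.6% and 6.05% to 7.22% of all genes were called. With rat as a block, 10 members were called for LA over RA (where 17.9% of all genes were), and of the 62 calls 5 were lost, all in the iSAN: Prkar2b (3.60) and Pde3b (2.43) over the RA, and Prkar2b (3.66), Pde3b (2.34) and Adcy3 (0.71) over the LA. The block ended no other call of a named member. From counts over the deposited lengths, the phosphodiesterase sum was 122 FPKM in the iSAN, 120.2 FPKM in the LA and 124 FPKM in the RA, and the regulatory sum 339 FPKM in the sSAN, 311.5 FPKM in the iSAN and 338 FPKM in the RA. The cause of these changes was not tested. Members under 1 CPM are limited by depth, and LV values by 2 libraries, so that with 1 of them left out the other is assumed to vary like the RA or LA libraries.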
